A study of Mus musculus with 20 samples.

Results

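The transcripts of 10 genes of the endoplasmic reticulum (ER) stress response and the integrated stress response, Hspa5, Dnajb9, Herpud1, Xbp1, Atf4, Ddit3, Trib3, Chac1, Asns and Sesn2, were followed in adipocytes of epididymal adipose tissue (epiAT) of mice during high-fat diet (HFD) feeding and after weight loss (WL). The genes were chosen by name, by matching their symbols to the gene identifiers of a count table of 46078 genes, and all 10 were found and passed the filter on low counts. The readout was TRAP–seq, in which mRNA bound to tagged ribosomes is pulled down and sequenced, so that the values describe ribosome-bound mRNA and neither protein nor its phosphorylation. The short arm held C mice on chow and H mice on HFD for 12 weeks, both 18 weeks old, and CC_s mice on chow and HC mice with 12 weeks of HFD followed by 8 weeks of chow, both 26 weeks old, with 3 mice per group. The long arm held CC_l mice on chow and HH mice on HFD for 25 weeks, both 31 weeks old, and CCC mice on chow and HHC mice with 25 weeks of HFD followed by 8 weeks of chow, both 39 weeks old, with 2 mice per group.

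Every mouse, chow controls included, carried the AdipoERCre and NuTRAP alleles on a C576BL6 background as the labels spell it, and per the study's methods every mouse had received tamoxifen. Cre was active only after tamoxifen, so the GFP tag was placed on the ribosomes of adipocytes that existed before the HFD began, and adipocytes formed later were not tagged by this design. The library names of the arms begin differently, which the labels do not explain, so no test crosses the arms and each HFD or WL group has 1 chow control. The comparisons ask which of these genes are changed in obesity and which are still changed after the weight has been lost.

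Secretory and membrane proteins fold in the ER with the help of chaperones such as BiP, which Hspa5 encodes. When unfolded proteins accumulate, the sensors IRE1 (Ern1), PERK (Eif2ak3) and ATF6 start the unfolded protein response: IRE1 splices Xbp1 mRNA, ATF6 and spliced XBP1 raise chaperones and ER-associated degradation (ERAD), and PERK phosphorylates eIF2α. The phosphorylation of eIF2α, which other kinases bring about when amino acids or haem are short, is the common step of the integrated stress response: it lowers general translation, raises translation of ATF4, and ATF4 with CHOP (Ddit3) induces genes for amino acid supply and for ending the response.

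The DNA elements that ATF6, XBP1 and ATF4 are known to bind were searched for in RefSeq promoters on GRCm38.p6, from 250 bases before to 50 bases after the transcription start, on both strands. The matches are shown because these are letters through which the arms of the response are known to act. All 10 genes matched the promoter table. Capitals mark the letters that the element fixes, and the sequences read 5′ to 3′ on the strand of the gene.
Hspa5, ERSE, chr2:34772020-34772048, plus strand: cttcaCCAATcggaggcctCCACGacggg
Herpud1, CARE, chr8:94386312-94386329, plus strand: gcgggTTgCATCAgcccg
Chac1, CARE, chr2:119351044-119351061, plus strand: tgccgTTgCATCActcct
Asns, CARE, chr6:7693220-7693237, minus strand: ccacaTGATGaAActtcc
Trib3, CARE, chr2:152344034-152344051, minus strand: caggtTTaCATCAgccgg

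The ER stress response element ERSE (CCAAT, 9 bases of any kind, CCACG) was present in 39 of 32851 promoters (0.119%), and of the 10 genes in Hspa5 alone, where it ran from 65 to 47 bases before the start. The C/EBP–ATF response element CARE (TGATGNAA), the site of ATF4 with a C/EBP partner, was present in 3.97% of promoters and in 4 of the 10 genes, Asns, Chac1, Herpud1 and Trib3. The element was read on the opposite strand in Chac1, Herpud1 and Trib3, and that of Trib3 lay 15 to 22 bases into the RefSeq transcript. The core of the XBP1 element UPRE (TGACGTGG) was present in 0.676% of promoters and in none of the 10 within this window. Distances are given to the RefSeq start, which differs from that of the GENCODE gene positions used below. By the GENCODE positions the elements of Hspa5 and Asns lie inside the gene and that of Trib3 lies before its start. Such matches describe letters in a window and not binding.

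Depth ranged from 10710277 to 36738954 counts per library, and 3 counts corresponded to 0.0815 to 0.251 CPM (counts per 1000000 counts of a library). The 10 adipocyte markers, Adipoq and Plin1 among them, summed to between 19559.6 and 143263 CPM, and none was at 0 in any group. Markers of other cells were present too: the summed CPM of 11 macrophage markers was 251 to 492 in C, 647 to 3621 in H, 214 to 296 in CC_s, 543 to 1957 in HC, 233 to 503 in CC_l, 3366 to 4513 in HH, 881 to 889 in CCC and 798 to 2301 in HHC, with no marker at 0 across a group. In 4 libraries (C replicates 1 and 2, CCC replicate 2 and HC replicate 3) the nuclear-retained RNA Malat1 stood at 17709 to 28951 CPM, against 2055 to 11807 CPM in the other 16. Where these 4 are left out below, C replicate 3 is the only C mouse and CCC replicate 1 the only CCC mouse. Effects in H and HHC without them rest on these single controls. CC_l replicate 1 held 3472 CPM of 7 spermatid markers. In a bulk pulldown, fewer cells of a type and less RNA per cell cannot be told apart.

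Over all 20 mice, and per kilobase of exon so that genes can be compared, Atf4 had the highest median level (78.1 CPM per kb), followed by Hspa5 (62.8), Xbp1 (42.7), Herpud1 (35.8), Ddit3 (24.8), Asns (22) and Dnajb9 (12.1). Trib3 (4.37), Sesn2 (3.98) and Chac1 (1.83 CPM per kb) were the lowest. The order of the first 2 depended on the group, since mean Hspa5 was above mean Atf4 in H (124 and 73.5 CPM per kb), HH (209 and 38.8) and CCC (75 and 56.7) and below it in the other 5 groups. The ranges of neighbours in this order overlapped: Hspa5 spanned 36.8 to 219.8, Atf4 27.1 to 144 and Xbp1 23.6 to 108 CPM per kb. Chac1, with 6 to 420 counts per library, had the widest relative range, from 0.182 to 8.82 CPM per kb.

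**Figure D1:**
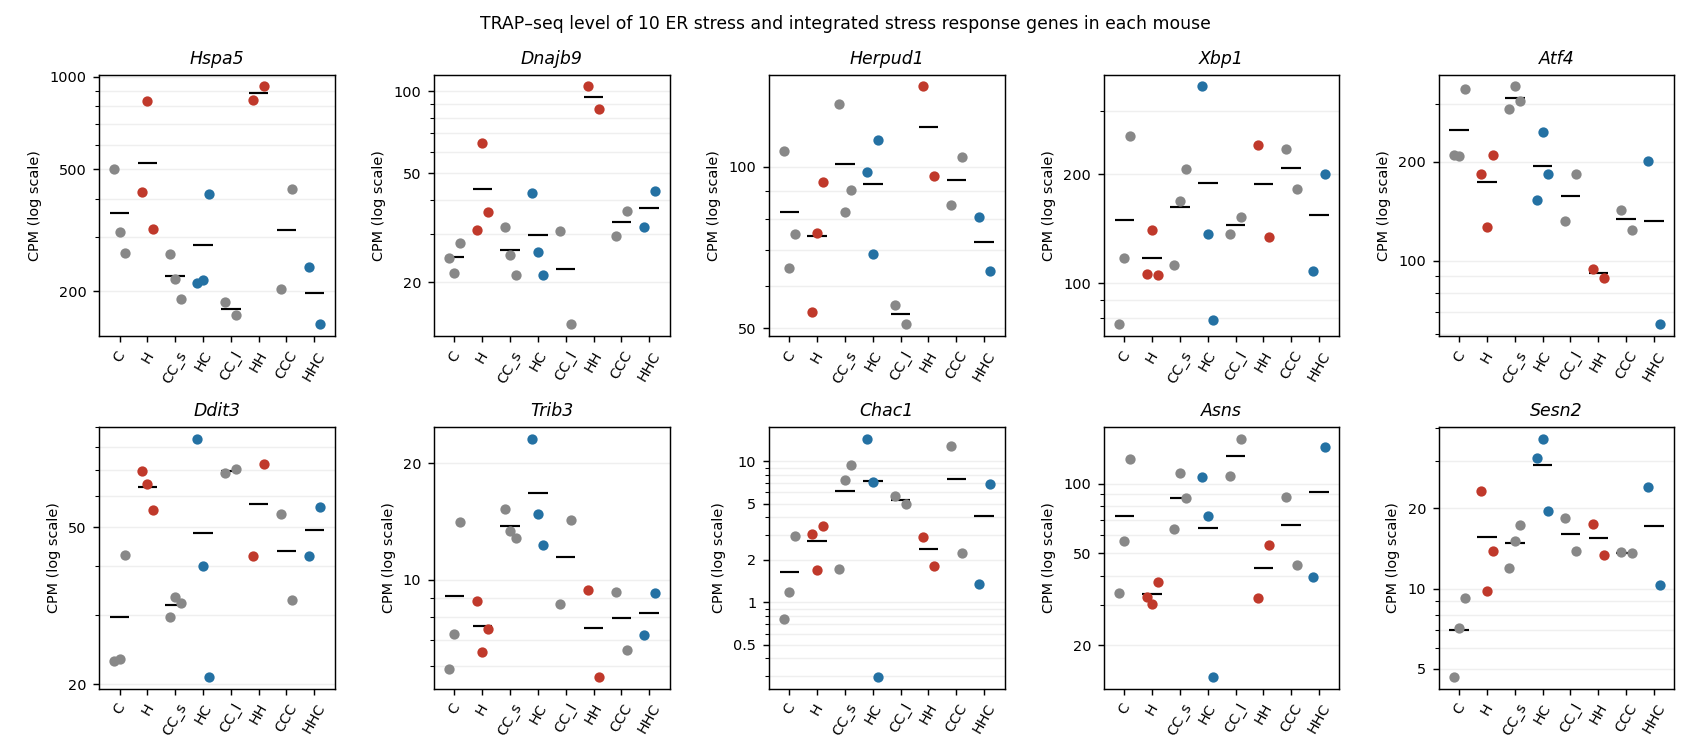
CPM (log scale) of the 10 genes in each of the 20 mice by group, with chow groups in grey, HFD groups in red, WL groups in blue and a black line at each group mean. Hspa5 and Dnajb9 stand higher in both HH mice, at 839.8 and 929.6 CPM and at 104 and 86 CPM, than in any of the other 18 mice.

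A gene was called where edgeR's quasi-likelihood test gave a nominal p under 0.01 and the log2 fold change was at least 1 in size, the rule of the study's methods, and the Benjamini-Hochberg adjusted p over all 21464 tested genes is given beside it. In H against C none of the 10 genes was called, where 3.57% of all genes were called up and 2.92% down. In HH against CC_l, 3 of the 10 were called up and none down, against 4.92% and 1.88% of all genes. After WL none was called in HC against CC_s, against 1.57% up and 0.172% down, and none in HHC against CCC, against 0.447% up and 2.67% down. At an unadjusted p under 0.05 the same comparisons held 3 (H), 4 (HH), 1 (HC) and 0 (HHC) of the 10. Of all 21464 genes they held 3665 (H), 3732 (HH), 1866 (HC) and 2292 (HHC). DESeq2 called 2 of the 10 in H, 3 in HH and none after WL. Of all genes it called 928 up and 1235 down in H, 1399 and 910 in HH, 649 and 78 in HC, and 350 and 835 in HHC.

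The called genes were Hspa5, Dnajb9 and Herpud1, which encode chaperone or ERAD proteins. The 6 genes Atf4, Ddit3, Trib3, Chac1, Asns and Sesn2 were not among them. Herpud1 also has a CARE, the site of ATF4 with a C/EBP partner, in its promoter window. The called genes therefore do not separate the arms of the response, and the part of ATF4 in the level of Herpud1 was not tested. The median log2 fold change of the 10 was 0.20 in H, -0.17 in HH, 0.23 in HC and 0.02 in HHC, beside -0.15, -0.23, 0.27 and -0.06 over all tested genes. Groups that did not overlap were counted too. In H, 3 of the 10 genes were higher in every H mouse than in every C mouse and none lower, against 13.4% and 10.6% of all genes. In HH, 3 were higher and 3 lower, against 26.3% and 28.9% of all genes, in HC 1 higher and 1 lower, against 8.01% and 5.82%, and in HHC none higher and 1 lower, against 8.49% and 20.3%.

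**Figure D2:**
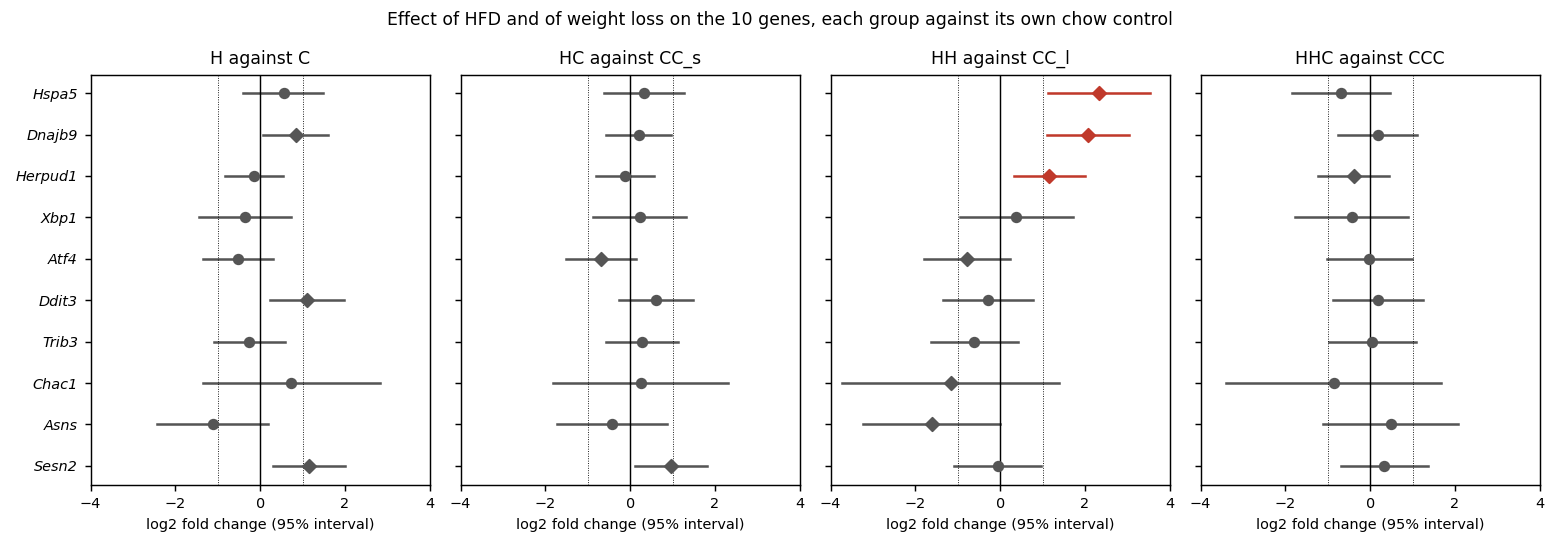
Log2 fold change of each gene in H, HC, HH and HHC against its own chow control, with lines for the 95% interval of the quasi-likelihood fit, red for called genes, diamonds where the groups did not overlap and dotted lines at a log2 fold change of 1 in either direction. Hspa5 (2.33), Dnajb9 (2.08) and Herpud1 (1.16) in HH are the only red symbols of the 4 panels.

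Hspa5 (chr2:34771970-34777547, mm10) encodes BiP, the main HSP70 chaperone of the ER lumen and the protein that holds the sensors inactive. Its level was 184 and 167 CPM in the CC_l mice and 839.8 and 929.6 CPM in the HH mice. Both HH mice were above all 10 chow mice of the study, whose highest value was 500.3 CPM. The log2 fold change was 2.33 (SE 0.57, 95% interval 1.12 to 3.54, 5.04-fold), with an adjusted p of 0.0441 by edgeR's quasi-likelihood test. Without CC_l replicate 2 it was 2.26 and the nominal p, 0.0105, no longer met the rule.

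In the short arm Hspa5 was at 500.3, 311 and 267 CPM in C and at 421, 836 and 318 CPM in H. The groups overlapped, since C replicate 1 was above H replicates 1 and 3, and H replicate 2 stood alone near the level of the HH mice. The log2 fold change was 0.55 (SE 0.45, adjusted p = 0.566), and without H replicate 2 it was 0.04. After WL, Hspa5 was at 212, 218 and 416 CPM in HC against 264, 220 and 188 CPM in CC_s, and at 239 and 156 CPM in HHC against 203 and 432 CPM in CCC. Both pairs of groups overlapped, with log2 fold changes of 0.33 (95% interval -0.61 to 1.27) and -0.68 (-1.84 to 0.47). The high CCC and HC values belonged to libraries with high Malat1, and without the 4 such libraries the log2 fold change was 1.08 in H, -0.12 in HC and 0.04 in HHC, with no call in any of the 3.

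**Figure D3:**
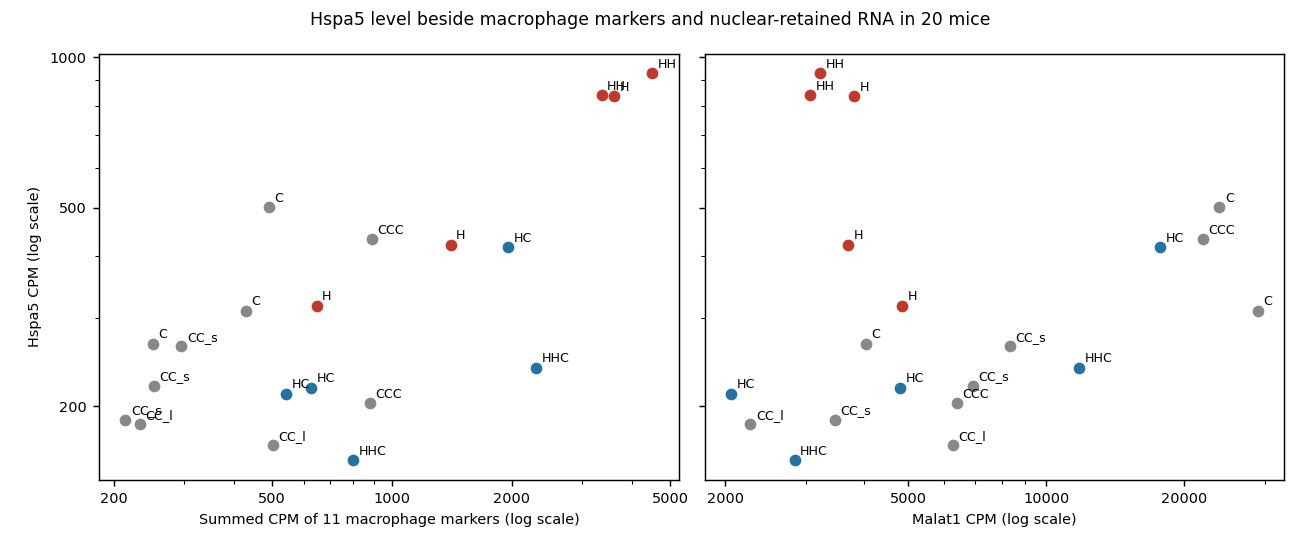
Hspa5 CPM of each of the 20 mice against the summed CPM of 11 macrophage markers (left) and against Malat1 CPM (right), all on log scales and with chow groups in grey, HFD groups in red and WL groups in blue, each point labelled with its group. The 3 mice with the highest Hspa5 (836 to 929.6 CPM), both HH mice and 1 H mouse, are also the 3 with the highest macrophage sums (3366 to 4513 CPM), while the C, CCC and HC mice with 416 to 500.3 CPM of Hspa5 lie at the right of the Malat1 axis. C replicate 2, highest in Malat1 (28951 CPM), has 311 CPM of Hspa5, and H replicate 1 has 421 CPM of Hspa5 at 3699.6 CPM of Malat1.

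Dnajb9 (chr12:44205559-44210326) encodes ERdj4, an ER-resident J-domain cofactor of BiP that is induced by XBP1 and represses IRE1. It was at 30.8 and 14 CPM in CC_l and at 104 and 86 CPM in HH. The HH mice were the highest of all 20, the next being H replicate 2 at 64.5 CPM. The log2 fold change was 2.08 (SE 0.46, 95% interval 1.11 to 3.05, 4.24-fold), with an adjusted p of 0.0298 by edgeR's quasi-likelihood test, and the call was kept without any of the 4 mice. It was lost, at a log2 fold change of 2.19, when the fit held only the libraries of these groups. In H the level was 31.1, 64.5 and 36.2 CPM against 24.4, 21.5 and 27.9 CPM in C, with no overlap, but the gene was not called (log2 fold change 0.84, SE 0.36, adjusted p = 0.249).

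After WL the Dnajb9 values of both arms overlapped those of their controls, with 42.5, 25.7 and 21.3 CPM in HC against 31.9, 25.2 and 21.2 CPM in CC_s, and 31.8 and 42.9 CPM in HHC against 29.6 and 36.5 CPM in CCC. The log2 fold changes were 0.20 (95% interval -0.57 to 0.96) and 0.18 (-0.76 to 1.11). A share of 5.5% of the 50-base words of Dnajb9 exons also occurs in the pseudogene Gm6568, so a small part of its reads could have been assigned there.

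Herpud1 (chr8:94386438-94395377) encodes HERP, a membrane protein of the ERAD complex. It was at 55.2 and 50.8 CPM in CC_l and at 141 and 96 CPM in HH. The HH values were above those of their own controls, but CC_s replicate 1 (131 CPM), C replicate 1 (107 CPM) and CCC replicate 2 (104 CPM) were above the lower HH mouse. The log2 fold change was 1.16 (SE 0.40, 2.23-fold), called at a nominal p of 0.00991 with an adjusted p of 0.146 by edgeR's quasi-likelihood test. The call held in 3 of 8 alternative settings, and it was lost without CC_l replicate 1 (1.22), CC_l replicate 2 (1.10) or HH replicate 1 (0.86).

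In the short arm Herpud1 was at 53.6, 75.3 and 93.6 CPM in H and at 107, 64.7 and 74.9 CPM in C, which overlapped. After WL it was at 97.6, 68.8 and 112 CPM in HC against 131, 82.3 and 90.3 CPM in CC_s. In the long arm both HHC mice, at 80.6 and 63.8 CPM, were below the CCC mice, at 84.8 and 104 CPM, by a log2 fold change of -0.38 that was not called (SE 0.40, adjusted p = 0.768).

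Xbp1 encodes the transcription factor that IRE1 activates by removing an intron from its mRNA, and gene counts do not separate the spliced from the unspliced form. Its total level was at 242 and 134 CPM in HH against 137 and 152 CPM in CC_l. The values overlapped, with a log2 fold change of 0.38 (SE 0.63, adjusted p = 0.795). The other groups overlapped as well, between 76.8 CPM (C) and 351 CPM (HC), and the log2 fold changes were -0.36 in H, 0.22 in HC and -0.44 in HHC.

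Atf4, the central transcription factor of the integrated stress response, is regulated mainly through its translation, so the level of its mRNA need not follow its activity. It was at 94.2 and 88.7 CPM in HH and at 132 and 183 CPM in CC_l. The HH mice were below both controls, but the gene was not called (log2 fold change -0.79, SE 0.48, adjusted p = 0.402). In HC the level was 153, 247 and 184 CPM, below the 290.1, 339 and 307 CPM of CC_s in every mouse, again without a call (log2 fold change -0.68, SE 0.39, adjusted p = 0.616). In H it was at 184, 127 and 209 CPM against 209, 208 and 332 CPM in C (log2 fold change -0.53, adjusted p = 0.521). In HHC it was at 201 and 64 CPM against 143 and 124 CPM in CCC, with a log2 fold change near 0 whose sign turned between normalizations (-0.02 with TMM and 0.13 with RLE).

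Ddit3 encodes CHOP, the transcription factor that PERK signalling induces late in ER stress. It was at 69.6, 64.4 and 55.5 CPM in H and at 22.9, 23.2 and 42.6 CPM in the C mice. Every H mouse was above every C mouse, with a log2 fold change of 1.10 (SE 0.42, 95% interval 0.22 to 1.97) that missed the rule (adjusted p = 0.188 by edgeR's quasi-likelihood test). It was called without C replicate 3 (log2 fold change 1.45), without the filter on low counts (1.13) and by DESeq2 (1.04). These were 2 of 8 alternative settings and 1 of 6 fits that left out a mouse. Across the alternative settings the log2 fold change ran from 0.68 to 1.13, and it was 0.95 without C replicate 2. In the long arm the order was not the same, since Ddit3 was at 42.3 and 72.4 CPM in HH around 68.8 and 70.2 CPM in CC_l (log2 fold change -0.28, SE 0.50). 

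After WL, Ddit3 ranged from 20.9 to 84 CPM in HC around the 29.7, 33.3 and 32.2 CPM of CC_s, and it was at 42.4 and 56.3 CPM in HHC against 54.2 and 32.7 CPM in CCC. Both pairs overlapped. The exons of Ddit3 share 68 bases with Mars on the opposite strand and 105 bases (6.13%) with a second gene model of the same name on its own strand, and strand use in the counting is not given in the sources used here, so some reads there may be assigned to either gene.

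Trib3, a pseudokinase induced by ATF4 and CHOP, was at 8.82, 6.52 and 7.49 CPM in H against 5.88, 7.24 and 14.1 CPM in C. In HH it was at 9.39 and 5.63 CPM against 8.66 and 14.3 CPM in CC_l. The groups overlapped in all 4 comparisons, and the log2 fold changes lay between -0.61 (HH) and 0.28 (HC). HC replicate 1 had the highest value of the study, 23.1 CPM.

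Chac1, which encodes a glutathione-degrading enzyme downstream of ATF4, was the gene with the largest error. It was at 2.92 and 1.82 CPM in HH, below the 5.67 and 4.98 CPM of CC_l, with a log2 fold change of -1.17 (SE 1.21, adjusted p = 0.649). In HC the 3 mice ran from 0.297 to 14.4 CPM, the lowest and the highest of the whole study. In H (0.73), HC (0.25) and HHC (-0.86) the SE of the log2 fold change was 0.97 to 1.2, and the 95% interval in HH ran from -3.73 to 1.39.

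Asns, asparagine synthetase, is a classical ATF4 target of the amino acid branch. It was at 32.1 and 54.3 CPM in HH, below the 108 and 157 CPM of CC_l. The log2 fold change was -1.62 (SE 0.77), with a nominal p of 0.0499 and an adjusted p of 0.287, and it was not called. In H it was at 32.3, 30.3 and 37.7 CPM, a narrow range at the low end of the 33.5, 56.8 and 128 CPM of C (log2 fold change -1.12, SE 0.62, adjusted p = 0.373). Without the 4 libraries with high Malat1, C replicate 3 (128 CPM) was the only C mouse left, and the log2 fold change in H was -1.83. Without C replicate 3 it was -0.43. In HH, where those libraries take out no compared mouse, Asns met the rule without them (-1.63) and without the filter on low counts (-1.52). After WL the values spread, from 14.6 to 107 CPM in HC around 63.7 to 111 CPM in CC_s, and to 39.4 and 145 CPM in HHC around 87.8 and 44.7 CPM in CCC.

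Sesn2 encodes sestrin 2, which ATF4 induces and which lowers mTORC1 signalling. It was at 23.3, 9.84 and 13.9 CPM in H against 4.68, 7.15 and 9.22 CPM in C, and at 30.9, 36.5 and 19.6 CPM in HC against 12, 15.1 and 17.4 CPM in CC_s. In both comparisons every mouse of the HFD or WL group was above every control, as was so for 13.4% of all genes in H and 8.01% in HC. Sesn2 was the only one of the 10 genes for which that held in both, and the share of all genes for which it held in both was not counted. The margin in H was narrow, with 9.84 CPM in the lowest H mouse and 9.22 CPM in the highest C mouse. The log2 fold changes were 1.16 (SE 0.40, adjusted p = 0.150) and 0.97 (SE 0.40, adjusted p = 0.550) by edgeR's quasi-likelihood test, and neither was called. In H the gene met the rule by DESeq2 (1.09), without C replicate 3 (1.41) and without H replicate 2 (1.41). It did not in the other alternatives, and without H replicate 1 the log2 fold change was 0.76. In HC the gene met the rule in none of the alternatives. In the long arm it overlapped, with 17.5 and 13.4 CPM in HH around 18.4 and 13.8 CPM in CC_l, and 24 and 10.3 CPM in HHC around 13.7 and 13.6 CPM in CCC.

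Whether an effect differed after WL from that during HFD was tested as an interaction at an adjusted p under 0.05. In the short arm no gene differed, of the 10 or of all tested genes (0%), and none of the 10 had a nominal p under 0.05, while 2538 of all genes did. In the long arm 0.815% of all genes differed and none of the 10. A nominal p under 0.05 was found for 3 of the 10 and for 3334 of all genes. For Hspa5 the effect in HHC minus that in HH was -3.02 on the log2 scale (SE 0.79, 95% interval -4.68 to -1.35, adjusted p = 0.0792). The difference was -1.91 for Dnajb9 (adjusted p = 0.153), -1.54 for Herpud1 (adjusted p = 0.194) and 2.09 for Asns (adjusted p = 0.359). Hspa5 passed the threshold without the filter on low counts, by DESeq2 and without CCC replicate 1, and Hspa5 and Dnajb9 passed a nominal p of 0.01. CCC replicate 2, a library with high Malat1, had the higher Hspa5 of its group, and leaving out all 4 such libraries moved the Hspa5 difference to -2.25.

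The remaining genes of these pathways were read as lists that the 10 genes are not in. Of 18 ER chaperones and folding enzymes 9 were called up in HH (median log2 fold change 1.41), against 4.92% of all genes, and 5 in H (median 0.64), against 3.57%, with none down. In HC and HHC none of the 18 was called, and the medians were 0.20 and -0.03. The HH count was 5 without CC_l replicate 1, CC_l replicate 2 or HH replicate 1, and 13 when the fit held only the libraries of HH and CC_l. The H count was 4 to 6 in all alternatives, with 5 without the 4 libraries with high Malat1. The HC count was 2 without those libraries, without HC replicate 3, without the filter on low counts or by DESeq2, and 1 with either replicate block or without CC_s replicate 2 or HC replicate 2.

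Pdia3, a protein disulfide isomerase for glycoproteins, was at 279, 559.5 and 182 CPM in H against 109, 127 and 56.8 CPM in C, and at 611 and 558 CPM in HH against 120.3 and 119 CPM in CC_l. Neither pair overlapped, and the log2 fold changes were 1.80 (adjusted p = 0.0327) and 2.29 (adjusted p = 0.0322). Fkbp11, an ER prolyl isomerase, rose by 2.54 (H) and 3.68 (HH), Ppib, another prolyl isomerase, by 3.51 in H, and Dnajb11, a BiP cofactor, by 1.73 in HH, all on the log2 scale with adjusted p between 0.00874 and 0.0416, and these calls and those of Pdia3 held without any of the mice. Hsp90b1, the ER HSP90 (GRP94), was at 452 and 484 CPM in HH against 178 and 165 CPM in CC_l and was not called (log2 fold change 1.45, adjusted p = 0.238), and in H its 320.2 to 593 CPM lay within the 307 to 627 CPM of C. After WL Pdia3 was at 123 to 171 CPM in HC (CC_s, 114 to 138) and at 175 and 118 CPM in HHC (CCC, 98.6 and 139).

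Other chaperones called in H had positive log2 fold changes in HC that were not called. Of all genes 64.1% had a positive log2 fold change in HC, with a median of 0.27. Ppib was at 25.4, 9.08 and 7.73 CPM in HC against 2.91, 7.41 and 2.98 CPM in CC_s, with no overlap (log2 fold change 1.66, SE 0.58, adjusted p = 0.536). Fkbp11 was at 5.02, 2.09 and 4.76 CPM against 2.12, 1.47 and 1.14 CPM, which overlapped (1.32, SE 0.60, adjusted p = 0.569). Sdf2l1, an ER cofactor named here after its values were seen, had a log2 fold change of 1.88 without overlap (SE 0.69, adjusted p = 0.536). That of P4hb was 0.36, with overlap (SE 0.37, adjusted p = 0.805). Ppib was called in HC in 5 of 8 alternative settings, the replicate block (1.64) and the fit without the 4 libraries with high Malat1 (1.89) among them, and Sdf2l1 in 3 of 8. In HHC the values of Ppib, Fkbp11, Sdf2l1 and P4hb overlapped those of CCC.

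**Figure D4:**
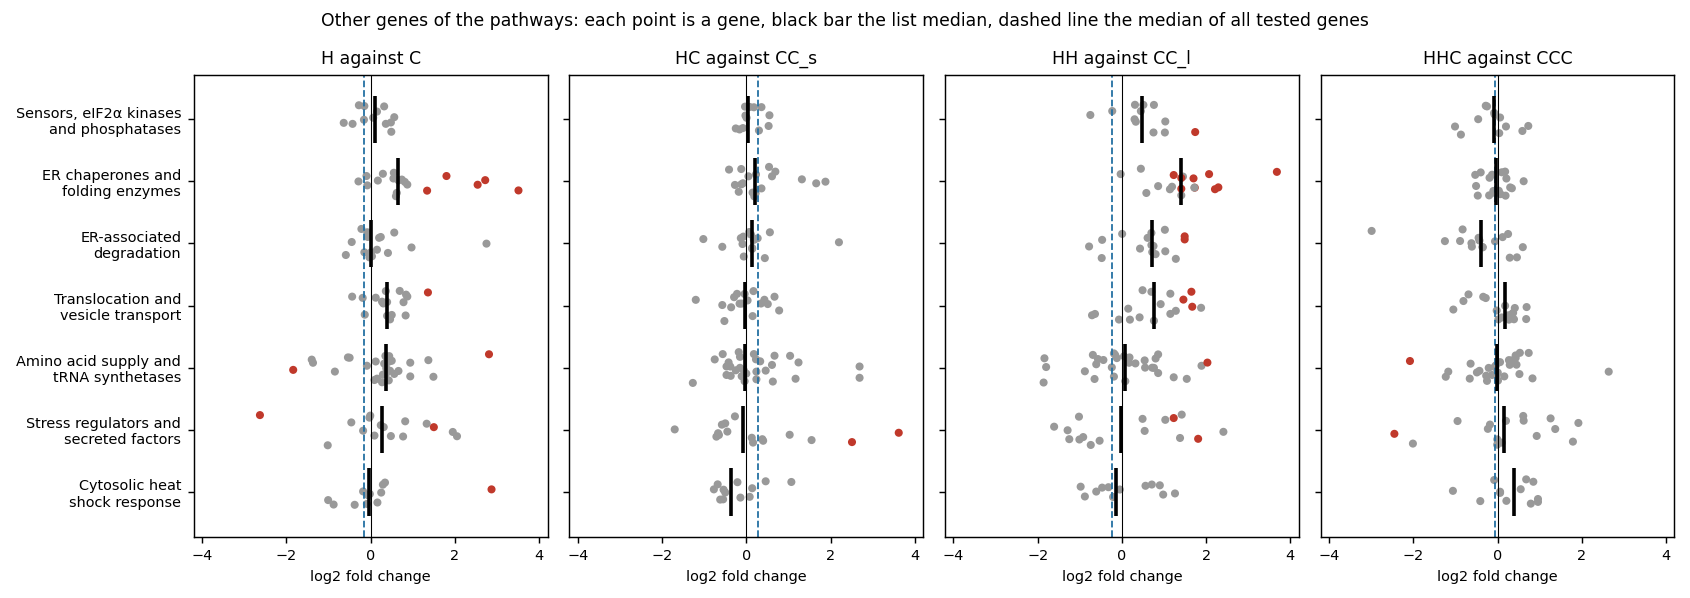
Log2 fold change of each gene of 7 pathway lists in the 4 comparisons, with called genes in red, the list median as a black bar and the median of all tested genes as a dashed blue line. The chaperone median lies at 1.41 in HH and 0.64 in H, and at 0.20 and -0.03 after WL.

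Of 16 ERAD genes 2 were called up in HH, Derl2 and Edem3 (both 1.49), and none in the other comparisons, with medians of 0.71 in HH and 0.02 in H. Of 17 genes for ER translocation and vesicle transport 3 were called up in HH, Spcs3 (1.67), Sec24d (1.65) and Ssr1 (1.46), and 1 in H, Ssr2 (1.36). The shares of all genes called up were again 4.92% in HH and 3.57% in H, and 1 gene of a list is near that background. Both HH counts were 0 without CC_l replicate 1, the ERAD count was 0 without CC_l replicate 2 or HH replicate 1, the transport count was 1 without HH replicate 1, and Ssr2 was not called without the 4 libraries with high Malat1 (1.16). Edem3 (1.51) and Ssr1 (1.49) were not called with the replicate block. The Ssr1 call was also lost with the crossed block (1.45) and with halved counts (1.45). It was lost too without CC_l replicate 1 (1.31), CC_l replicate 2 (1.62), HH replicate 1 (1.35) or HH replicate 2 (1.56). Of 12 sensors, eIF2α kinases and phosphatases 1 was called, Eif2ak3 (PERK), at 22.8 and 20.2 CPM in HH against 3.66 and 9.3 CPM in CC_l (log2 fold change 1.74, adjusted p = 0.132), and this call was lost without CC_l replicate 1 (1.21) or either HH mouse (1.64 and 1.82). Ern1, at 10.5 and 11.7 CPM in HH against 5.64 and 10 CPM in CC_l, Atf6, at 58.9 and 49.9 CPM against 28.3 and 36.6 CPM, and Ppp1r15a (GADD34, which recruits the eIF2α phosphatase), at 11 and 11.8 CPM against 7.56 and 5.83 CPM, were not called.

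The amino acid list of the ATF4 branch, with 30 enzymes, transporters and tRNA synthetases, had medians of 0.36 in H, 0.06 in HH, -0.02 in HC and -0.0084 in HHC, and in H 23 of its 30 genes had a positive log2 fold change. The list held 1 gene called up and 1 down in H, against 3.57% and 2.92% of all genes. It held 1 up in HH, against 4.92%, and 1 down in HHC, against 2.67%, so each count is near the background. Its called genes were Aldh18a1 (2.81) and Slc1a5 (-1.84) in H, Slc3a2 in HH (2.03, not called at 1.52 without HH replicate 1) and Slc1a5 in HHC (-2.08). Slc1a5, a glutamine transporter, was at 3884, 3240.1 and 1409 CPM in C and 781, 676 and 924 CPM in H, and at 1344 and 5078 CPM in CCC and 643 and 881 CPM in HHC. Its 3 highest values were in libraries with high Malat1, and without the 4 such libraries the log2 fold changes were -0.72 and -0.74 and neither was called. Aldh18a1 was not called without these libraries either (2.18). With the replicate block the calls of Aldh18a1 (2.69) and of Slc1a5 in H (-1.78) and HHC (-1.96) were lost. That of Slc1a5 in H was also lost without C replicate 1 (-1.53), C replicate 2 (-1.74), H replicate 1 (-1.83), H replicate 2 (-1.74) or H replicate 3 (-1.97), that in HHC without CCC replicate 2 (-0.82), HHC replicate 1 (-1.87) or HHC replicate 2 (-2.34), and that of Aldh18a1 without C replicate 1 (2.65), C replicate 2 (2.60) or H replicate 2 (2.43).

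Of 16 stress regulators and secreted factors, Vldlr rose in H (1.5) and HH (1.81), Nfe2l2 rose in HH (1.23) and Vegfa fell in H (-2.63) and HHC (-2.45). Of all genes 3.57% were called up and 2.92% down in H, 4.92% up in HH and 2.67% down in HHC. The highest Vegfa values, 338, 271 and 210.3 CPM, were in CCC replicate 2 and C replicates 2 and 1, libraries with high Malat1. Without the 4 such libraries Vegfa in HHC was at -1.03 and not called. The H calls held without any mouse, that of Vldlr in HH was lost without CC_l replicate 1 (1.59), that of Nfe2l2 without CC_l replicate 1 (1.08), CC_l replicate 2 (1.4) or HH replicate 1 (1.03), and that of Vegfa in HHC without CCC replicate 2 (-1.11), HHC replicate 1 (-2.47) or HHC replicate 2 (-2.44). The 2 genes of this list called in HC were Atf3, at 10.7, 18.9 and 53.6 CPM in HC against 4.24, 5.16 and 5.2 CPM in CC_s (log2 fold change 2.51, adjusted p = 0.536), and Gdf15, at 1.31, 3.29 and 8.72 CPM against 0.794, 0.164 and 0.127 CPM (3.62, adjusted p = 0.536). Both were called up, as were 1.57% of all genes in HC. HC replicate 3, the library with high Malat1 and 526 CPM of spermatid markers, was the highest for both, and without it the log2 fold changes were 1.60 and 2.68 and neither was called. The Atf3 call was also lost without any 1 of the CC_s mice (2.42 to 2.56) and with either replicate block (2.26), and that of Gdf15 without CC_s replicate 2 (3.26) or CC_s replicate 3 (3.23) and when the fit held only the libraries of HC and CC_s (3.52). Atf3 was at 20.2, 30.4 and 9.21 CPM in H against 3.27, 2.08 and 10.1 CPM in C, and at 31.2 and 50.7 CPM in HH against 1.89 and 13.6 CPM in CC_l, without a call. Fgf21 was low throughout, at 2.92 CPM or less, with 0 counts in 1 HHC mouse. Of 12 cytosolic heat shock genes 1 was called, Hspb1 in H (2.87), and the medians were -0.04 in H and -0.13 in HH. Of all genes 3.57% were called up in H, and 1 gene of a list is near that background.

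Markers of macrophages, adipocyte progenitors and endothelial cells were called up in both HFD groups, and those of macrophages in HC as well. Of all genes 4.92% were called up in HH, 3.57% in H and 1.57% in HC. The shares called down were 2.92% in H and 2.67% in HHC. In HH, 9 of 11 macrophage markers, 5 of 7 adipocyte progenitor markers and 6 of 7 endothelial markers were called up, with median log2 fold changes of 3.46, 2.93 and 2.71, and the median of the 10 adipocyte markers was -1.49 with 1 called down. In H, 7 of 11, 3 of 7 and 4 of 7 were called up. In HC, 7 of 11 macrophage markers (median 1.85), 1 of 7 adipocyte progenitor markers and 0 of 7 endothelial markers were called up. The summed macrophage markers were at 543 to 1957 CPM in HC, which overlapped the 647 to 3621 CPM of H in the same arm. In HHC none of the macrophage markers was called (median 0.90). None of the adipocyte, macrophage, adipocyte progenitor and endothelial markers was at 0 across a group. Of 8 lipid-associated macrophage markers 6 were called up in H, 3 in HH and 5 in HC. Of 7 spermatid markers 5 were called up in HC and none in H or HH. Of 7 epididymal epithelium markers 3 were called up in H. Lymphocyte and erythrocyte markers held no call in H or HH. Of 6 mesothelial markers 2 were called down in H and 1 in HHC, and of 7 endothelial markers 2 in HHC. The part of other cells in the levels of Hspa5, Dnajb9, Herpud1 and the chaperones was not tested.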

How the data were processed

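TRAP–seq libraries of epiAT from 20 mice in 8 groups were analysed. Per the labels and the submitters' processing notes, the authors checked reads with FastQC 0.11.9, trimmed them with Trim Galore 0.6.6, aligned them to mm10 with HISAT2 2.2.1 and counted them per gene with featureCounts (Subread 2.0.1), and the deposited values are whole-number counts without normalization. The annotation, strand setting and handling of read pairs are not given in the sources used here. Because 74.4% to 89.2% of the nonzero counts of a library were even, halved counts were an alternative. Symbols and positions came from GENCODE vM21 for 45143 of 46078 genes.

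From the counts, edgeR 4.0.16 (R 4.3.3) was run with filterByExpr, TMM and the quasi-likelihood test, with all libraries in 8 groups and a prior of 5.29 degrees of freedom (biological coefficient of variation 0.68). CPM are TMM-scaled. DESeq2 1.42.0, RLE, no filter, only the compared groups, a replicate block, halved counts, other thresholds and leaving out each mouse were alternatives, and leaving out the 4 libraries highest in Malat1 and a crossed block were chosen after seeing the data. The 10 genes and the lists were chosen with earlier results of these data known. Named among the list genes were at most 3 called genes per list and comparison with the smallest nominal p, plus Fgf21, Gdf15, Atf3, Ppp1r15a, Eif2ak3, Ern1, Atf6 and Hsp90b1 whatever their values. Sdf2l1 and P4hb were named after their values were seen. Adjusted p-values are Benjamini-Hochberg values over 21464 genes. The procedure was tested on simulated data. Same-numbered mice did not deviate together in every pair (correlations from -0.28 to 0.19), so the numbers were not taken as pairs. The labels call each replicate a separate biological replicate. Figures were drawn with matplotlib 3.10.9. The 3-count limit covers counting error only.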

Additional observations from a re-analysis of the deposited data

Results flagged for a closer look

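Slc3a2, the heavy chain shared by several amino acid transporters, was the only gene of the 7 pathway lists or of the 10 genes whose effect differed between HHC and HH at an adjusted p under 0.05. It was at 280.1 and 151 CPM in HH against 51.1 and 54 CPM in CC_l, and at 38.4 and 56.4 CPM in HHC against 63.7 and 150.4 CPM in CCC. The effect in HHC minus that in HH was -3.21 on the log2 scale (SE 0.67, adjusted p = 0.0369, edgeR's quasi-likelihood test). Without the 4 libraries with high Malat1, of which CCC replicate 2 is 1, the difference was -2.35 and did not pass, and it was -2.46 without CCC replicate 2 alone. It passed in 3 of 8 alternative settings and in 2 of 8 fits that left out a mouse.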

How the results depend on the processing

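Without the 4 libraries highest in Malat1, C replicate 3 was the only C mouse left, so no count of the 10 is given there for H. The number of the 10 genes called in H against C was 0 and became 1 without the filter on low counts, 2 by DESeq2, and 0 to 2 when a mouse was left out. In HH against CC_l it was 3, and 1 to 3 when a mouse was left out, with 1 without CC_l replicate 2, 2 with RLE, halved counts, only the compared groups or an adjusted p under 0.05, and 4 without the 4 libraries. In HC and HHC it stayed 0 in all alternatives. The number with a different effect in HHC than in HH was 0 and became 1 without the filter, 1 by DESeq2, 2 at a nominal p under 0.01 and 0 to 1 without a mouse. With the replicate block 2 genes were called in HH, as with a crossed replicate block in the long arm, which was added because same-numbered long-arm mice correlated at -0.19 and -0.26, and the blocks changed no other count of called genes among the 10. At a nominal p under 0.05 the replicate block left 2 in H and 3 in HH, and the crossed block 2 in H. RLE moved the share of calls in HHC that were up from 14.3% to 27% and DESeq2 that in H from 55% to 42.9%. RLE moved the median of all genes by at most 0.08 in size, and leaving out the 4 libraries moved it by 0.47 in H and -0.26 in HC.

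Directions turned for effects that were not called, of up to -0.86 (Chac1 in HHC). Without the 4 libraries they were 0.10 (Herpud1) and -0.01 (Chac1) in H, -0.12 (Hspa5) in HC, and 0.04 (Hspa5), -0.06 (Ddit3) and -0.10 (Trib3) in HHC. Sesn2 in HH was 0.02 without the filter and 0.08 with only the compared groups. Atf4 in HHC was 0.13 with RLE, with DESeq2 and with only the compared groups, and 0.05 without the filter. When a mouse was left out, the log2 fold change in H ran from -0.60 to 0.27 for Xbp1, -0.43 to 0.21 for Trib3 and -0.35 to 0.14 for Herpud1. In HC it ran from -0.06 to 0.50 for Hspa5, -0.06 to 0.97 for Ddit3, -0.59 to 0.58 for Xbp1, -0.03 to 0.46 for Trib3, -0.15 to 0.39 for Dnajb9, -0.28 to 0.10 for Herpud1, -0.73 to 0.81 for Chac1 and -1.0 to 0.04 for Asns. In HH it ran from -0.72 to 0.06 for Ddit3, -0.11 to 0.75 for Xbp1 and -0.26 to 0.17 for Sesn2. In HHC it ran from -0.14 to 0.60 for Ddit3, -1.06 to 0.58 for Atf4, -0.18 to 0.32 for Trib3, -0.06 to 0.38 for Dnajb9, -2.48 to 0.88 for Chac1, -0.75 to 1.13 for Asns and -0.40 to 0.80 for Sesn2. The cause of the turns was not tested. With 2 mice per group in the long arm and an SE of 0.40 to 1.21, smaller effects were not detectable.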
